A study of Mus musculus with 6 samples.

Results

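Lysosome and cathepsin genes were followed in mouse bone marrow labelled Stag2KO and Stag2WT. The Stag2 protein belongs to cohesin, a ring-shaped assembly that tethers sister chromatids and extrudes DNA into loops. RNA was sequenced from marrow depleted with magnetic beads of cells that carry markers of mature blood lineages, with 3 libraries labelled Stag2KO and 3 labelled Stag2WT. All 6 libraries share this depletion, and the labels state neither the allele, nor what drives the deletion, nor the age of the animals. The rule that picks the genes uses their symbols and no measured value. It takes in 13 cathepsins, other lysosomal enzymes and their cofactors, lysosomal membrane proteins, and Tfeb. The list itself was drawn up with earlier results of these data known, so shares set beside all tested genes are descriptive only. All 37 were found among the 33924 genes of the deposited table, Tfeb under its older symbol Tcfeb, and all 37 had enough reads to be among the 15708 genes tested.

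Lysosomes are acidic compartments in which proteins, glycans and lipids taken up from outside or from the cell itself are broken down. Cathepsins are their main proteases, glycosidases and lipid hydrolases take apart sugar chains and membrane lipids, and heavily glycosylated membrane proteins line the compartment. In marrow, macrophages are especially rich in lysosomes, since they engulf dying cells and expelled red cell nuclei, and granulocytes carry related storage granules.

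The libraries held 29435651 to 37722325 reads assigned to genes. Levels are given as CPM, reads per 1000000 gene reads after TMM scaling. Progenitor genes were present, and the receptor gene Kit averaged 244 ± 19.5 CPM in Stag2KO libraries and 236 ± 15.8 CPM in Stag2WT libraries (SD, n = 3 each). Stag2 itself stood at 169, 187 and 183 CPM in Stag2KO libraries, against 338, 329 and 324 CPM in Stag2WT libraries, a log2 fold change of -0.88 (adjusted p = 0.000278 by edgeR). Macrophage transcripts were present after the depletion and differed between the groups. Of 14 resident macrophage genes 13 were lower in Stag2KO, and 10 of these calls held whichever library was left out. The summed level of the 14 genes was 394 to 602 CPM in Stag2KO and 1604 to 1656 CPM in Stag2WT. None of the 14 was at 0 reads. Whether a group's libraries are from separate animals is not stated, so each p-value here reflects spread among these samples, which may be technical.

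Stag2KO marrow held less RNA of a small set of lysosomal genes, comprising 4 proteases, a ceramidase and a lipid-binding cofactor. Most of the 37 did not pass the test. The falls of the ceramidase gene Asah1 and the protease gene Ctsb were each called in only 2 of the 6 fits that left out a library. The other falls were called in all 6. Legumain (Lgmn) stood at 34.3% of its Stag2WT level, the ganglioside cofactor Gm2a at 41.4%, and cathepsins Ctsc, Ctsd and Ctsb at 56.9%, 70.0% and 70.4%. The tetraspanin gene Cd63 and the glycosidase gene Gla were higher in Stag2KO, at 140% and 129% of Stag2WT. Of the 37 genes, 6 fell (16.2%, against 10.5% of all tested genes called lower), 2 rose (5.41%, against 10.7% of all tested genes called higher) and 29 were not called. A gene was called at an adjusted p under 0.05 by edgeR's quasi-likelihood test, adjusted over all 15708 genes. The share called in either direction among all tested genes was 21.2%. The median log2 fold change was -0.15 over the 37 genes and 0.01 over all tested genes, and 67.6% of the 37 fold changes were below 0, against 49.3% of all tested genes.

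The number of falls ranged from 4 to 10 over the 6 fits that left out a library. It was 10 without Stag2KO replicate 3, which was also the number by DESeq2. The number of rises ranged from 1 to 4 over the same 6 fits. It was 1 without Stag2KO replicate 1 or 3 or Stag2WT replicate 1 or 2, and 4 without Stag2KO replicate 2. Reads outside annotated genes made up 11.1% to 12.8% of all reads listed in Stag2KO libraries and 8.81% to 10.1% in Stag2WT libraries. With this share as a covariate, an alternative chosen after the data were seen, edgeR called 0 of the 37 genes in either direction. At an unadjusted p under 0.05, 3 were lower and 3 higher. The share did not overlap between the groups, so this fit could not separate it well from genotype. Most calls over all tested genes were lost as well.

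**Figure D1:**
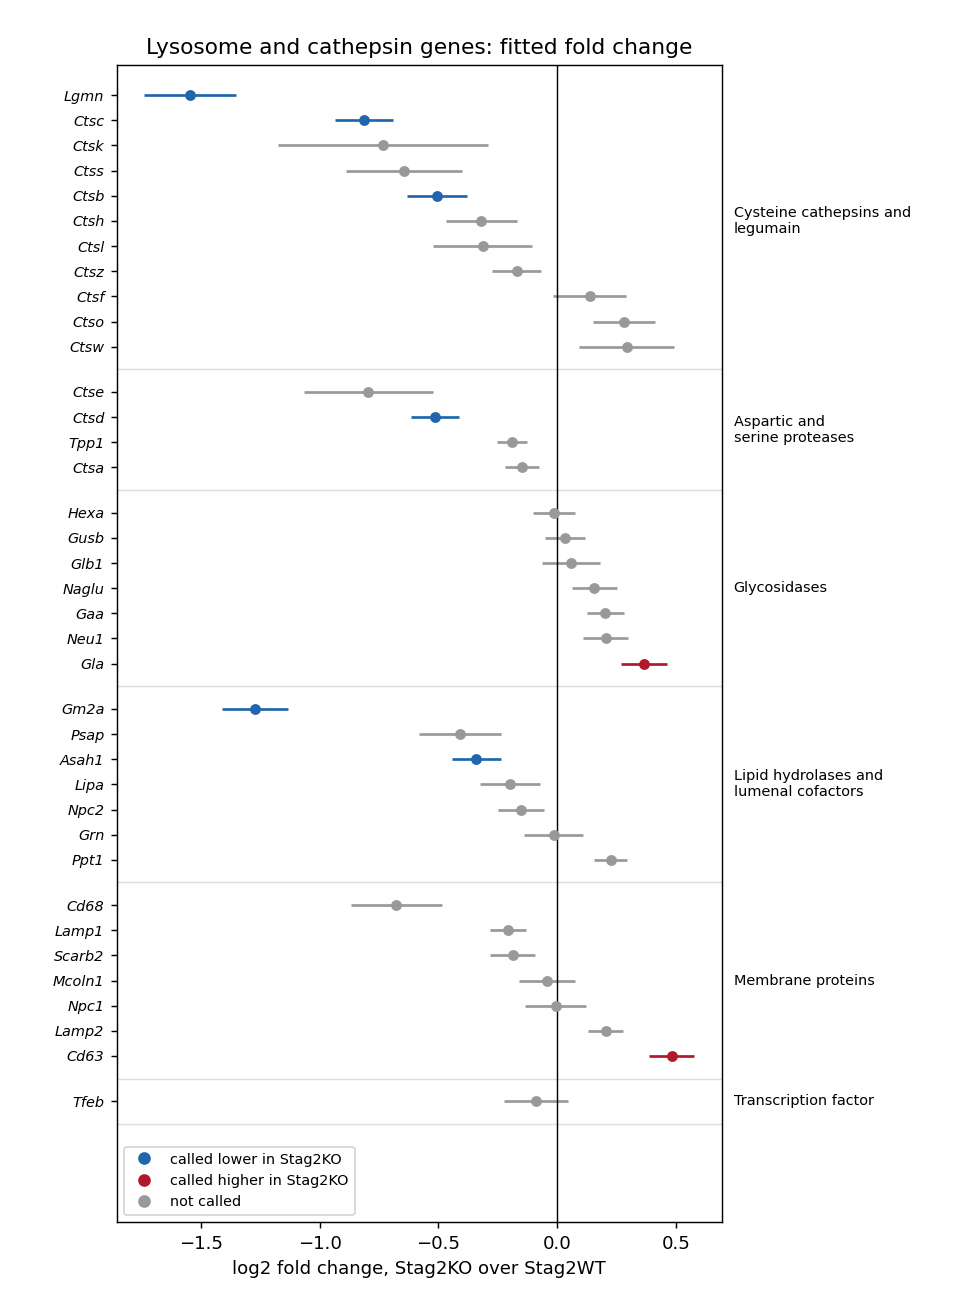
Fitted log2 fold change of Stag2KO over Stag2WT for the 37 genes by class (points; bars are 1 standard error; blue, called lower in Stag2KO; red, called higher; grey, not called). Lgmn at -1.54 and Gm2a at -1.27 lie farthest left, and Cd63 at 0.48 lies farthest right.

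Cysteine cathepsins and legumain carried the deepest fall. Legumain is an asparagine-specific protease that also cuts other lysosomal proteases into their mature forms. Lgmn was measured at 21.2, 15.0 and 24.6 CPM in Stag2KO libraries, against 68.2, 50.9 and 58.2 CPM in Stag2WT libraries. Every Stag2KO library lay far below every Stag2WT library, with a log2 fold change of -1.54 and SE of 0.19 (adjusted p = 0.00325 by edgeR). Ctsc encodes dipeptidyl peptidase I, which trims the serine proteases of neutrophil and mast cell granules into active enzymes. Its level was 63.9, 65.6 and 83.7 CPM in Stag2KO libraries, against 131, 109 and 134 CPM in Stag2WT libraries. The groups did not overlap, and Ctsc fell by 0.81 log2 units (SE 0.12, adjusted p = 0.00485 by edgeR). Both calls held when any library was left out.

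Granule serine protease genes, the class to which the substrates of the Ctsc enzyme belong, were called in both directions. The basophil protease genes Mcpt8 (log2 fold change -0.67, adjusted p = 0.00105 by edgeR) and Prss34 (-0.79, adjusted p = 0.000833) fell. Both calls held whichever library was left out. Of the 7 basophil and mast cell genes listed, 3 were lower in Stag2KO, 2 were higher and 2 were not called. Of these 5 calls 3 held in all 6 edgeR fits that left out a library. Those of Fcer1a and Ms4a2 were lost in 4 and 5 of the fits. The further granule serine protease genes Cma1 and Gzma were not called. In neutrophils and their precursors, Elane (log2 fold change 0.41), Prtn3 (0.63) and the cathepsin G gene Ctsg (0.45) rose, with adjusted p of 0.041, 0.0259 and 0.0479 by edgeR. The Elane and Ctsg calls were lost when any single library other than Stag2KO replicate 2 was left out, and the Prtn3 call for any single library other than Stag2KO replicate 2 and Stag2WT replicate 3 (adjusted p of up to 0.136). Of 13 genes of neutrophils and their precursors, 5 were higher in Stag2KO and 8 were not called, and 0 of the 5 calls held in all 6 edgeR fits that left out a library. Mpo was not called with Stag2KO replicate 3 left out (adjusted p = 0.0506), and Cebpe with Stag2KO replicate 3 or any single Stag2WT replicate left out (0.063 to 0.0848). Their summed level was 17923 to 24436 CPM in Stag2KO and 15888 to 17136 CPM in Stag2WT.

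Ctsb, an endopeptidase common to most cells, was at 557, 457 and 623 CPM in Stag2KO libraries, against 873, 728 and 722 CPM in Stag2WT libraries. The groups did not overlap, and Stag2KO replicate 3 came nearest to the Stag2WT libraries. Ctsb fell by 0.51 log2 units (SE 0.13, adjusted p = 0.0268 by edgeR). It was not called when Stag2KO replicate 1 (adjusted p = 0.0636) or 2 (0.0633) or Stag2WT replicate 1 (0.0687) or 2 (0.0617) was left out. In the GENCODE M21 annotation an exon of Fdft1 on the opposite strand overlaps Ctsb, and without a known strand setting reads of the overlap cannot be told apart.

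The other 8 cysteine cathepsins were not called. Ctss, which trims the invariant chain of MHC class II molecules, was at 116, 111 and 186 CPM in Stag2KO libraries, against 261, 183 and 201 CPM in Stag2WT libraries. Stag2KO replicate 3 lay just above the lowest Stag2WT library, and the log2 fold change of -0.64 had an adjusted p of 0.118 by edgeR and 0.00556 by DESeq2. Ctsl, a broad endopeptidase, was at 39.6, 38.3 and 64.5 CPM in Stag2KO libraries, against 62.7, 54.5 and 60.0 CPM in Stag2WT libraries, a log2 fold change of -0.31 that was not called (adjusted p = 0.317 by edgeR). Here too Stag2KO replicate 3 stood apart from the other Stag2KO libraries, above all Stag2WT libraries. Without Stag2KO replicate 3, Ctss (log2 fold change -0.92, adjusted p = 0.00991) and Ctsl (-0.60, adjusted p = 0.00733) were called lower. The aminopeptidase Ctsh (-0.32) and the carboxypeptidase Ctsz (-0.17) had small negative fold changes, while Ctsf (0.14), Ctso (0.28) and Ctsw (0.29), a cathepsin of cytotoxic lymphocytes, had positive ones.

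Ctsk, the collagen-cutting cathepsin of osteoclasts, was barely detected, at 2.09, 0.626 and 0.917 CPM in Stag2KO libraries and 2.20, 2.4 and 1.35 CPM in Stag2WT libraries. Its lowest library held 23 reads, and the groups overlapped (log2 fold change -0.73, adjusted p = 0.265 by edgeR). Without Stag2KO replicate 1 it was called lower (-1.35, adjusted p = 0.0409). Among 9 osteoclast markers, those with narrow expression (Calcr, Ocstamp, Dcstamp and Oscar) were close to 0. They averaged between 0 and 0.208 CPM in Stag2KO and between 0.00952 and 0.295 CPM in Stag2WT. The list as a whole was not near 0. Summed over all 9 markers, the level was 283 to 388 CPM in Stag2KO and 203 to 313 CPM in Stag2WT.

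**Figure D2:**
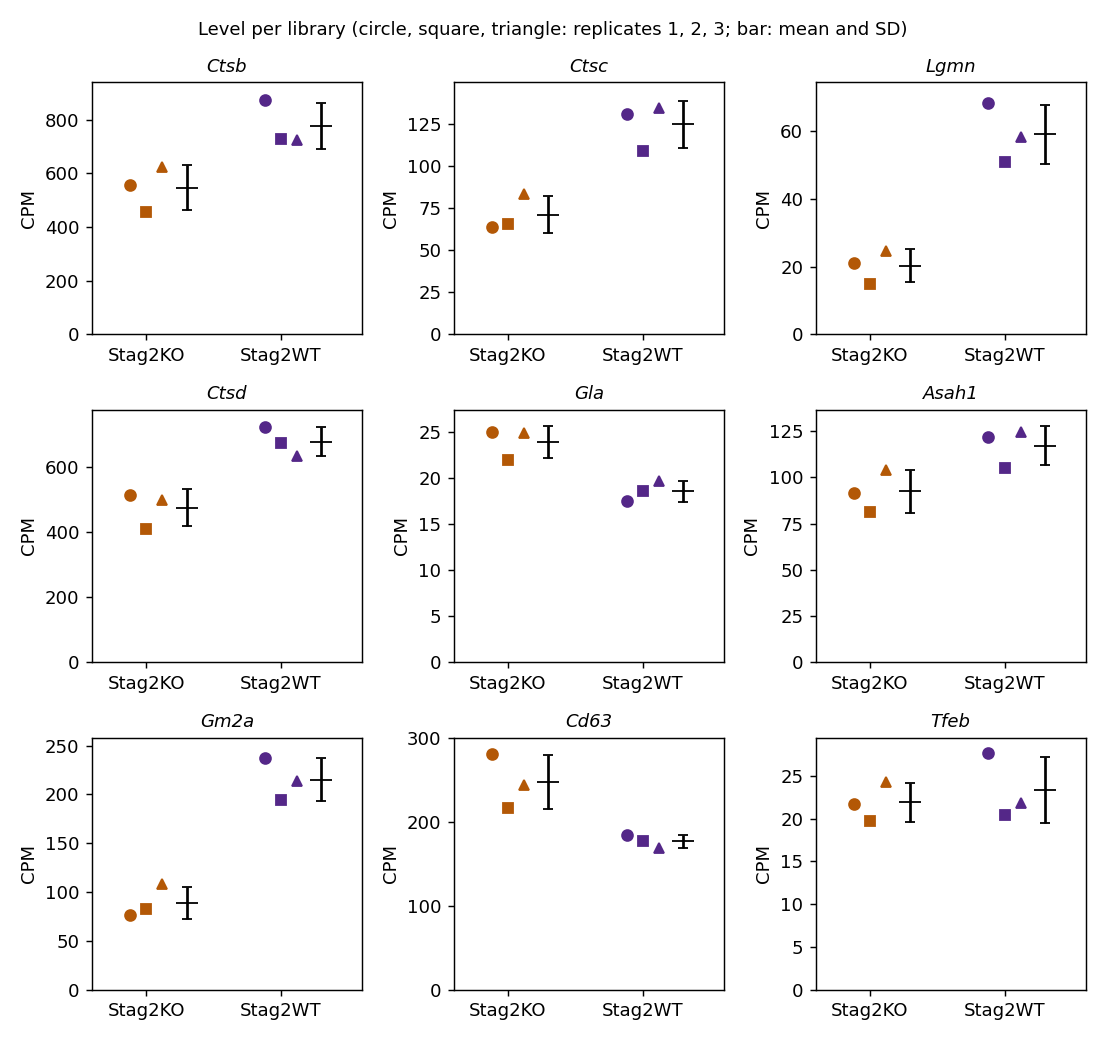
Level in CPM (vertical axis, from 0) of the 8 called genes and Tfeb in each library, with Stag2KO on the left and Stag2WT on the right of each panel (symbols, replicates 1 to 3; black, mean with SD). The groups are apart in the 8 called genes and overlap for Tfeb, at 19.8 to 24.2 CPM in Stag2KO and 20.4 to 27.7 CPM in Stag2WT.

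The remaining proteases use an aspartate or a serine to cut. Ctsd, the major aspartic protease of lysosomes, was at 514, 408 and 499 CPM in Stag2KO libraries, against 721, 673 and 633 CPM in Stag2WT libraries. The groups did not overlap, and Ctsd fell by 0.51 log2 units (SE 0.10, adjusted p = 0.0108 by edgeR), with the call kept when any library was left out. A gene model, Gm49369, overlaps Ctsd on the same strand in GENCODE M21. It could affect the Ctsd count only if the annotation used for counting, which is not stated, held it. In GENCODE M21, 9 of the 37 genes, Ctsb and Ctsd among them, have an exon overlapped by another gene. Ctse, an aspartic protease of endosomes that is also found in red cell precursors, was at 228, 204 and 162 CPM in Stag2KO libraries, against 304, 477 and 249 CPM in Stag2WT libraries. Stag2WT replicate 2 stood far above the rest, and although the groups did not overlap the fold change of -0.79 was not called (SE 0.27, adjusted p = 0.0931 by edgeR). The sums of 9 erythroid marker genes, none at 0 reads, were 2211, 2175 and 1735 CPM in Stag2KO libraries, against 2547, 3184 and 1905 CPM in Stag2WT libraries. Within each group the libraries had the same order in this sum as in Ctse. Of the 9 genes 3 were lower in Stag2KO (Klf1, Epor and Tfrc), and 0 of these calls held in all 6 edgeR fits that left out a library. Each was lost without Stag2KO replicate 1, 2 or 3 or Stag2WT replicate 1, and that of Epor also without Stag2WT replicate 2 (adjusted p of up to 0.124). The part of these cells in the Ctse values was not tested. The serine carboxypeptidase Ctsa, which also protects neuraminidase and beta-galactosidase, had a log2 fold change of -0.15 (adjusted p = 0.173). The tripeptidyl peptidase Tpp1 had one of -0.19 (adjusted p = 0.0675), with groups that did not overlap.

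Summed over the 13 cathepsin genes, the level was 1744 to 2186 CPM in Stag2KO and 2578 to 2956 CPM in Stag2WT, so 71.9% of the Stag2WT mean was present. This sum is weighted towards Ctsb and Ctsd. Of the 13 genes 3 fell (23.1%, against 10.5% of all tested genes called lower) and 10 were not called. In bulk samples fewer cells of a type and less RNA per cell cannot be told apart, for these and the other genes.

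Glycosidases remove sugars from glycoproteins and glycolipids. Of their 7 genes 1 rose (14.3%, against 10.7% of all tested genes), 0 fell by edgeR and 6 were not called, with a median log2 fold change of 0.16. Gla, encoding alpha-galactosidase A, was at 24.98, 21.9 and 24.9 CPM in Stag2KO libraries, against 17.4, 18.5 and 19.7 CPM in Stag2WT libraries. Every Stag2KO library lay above every Stag2WT library, and Gla rose by 0.37 log2 units (SE 0.10, adjusted p = 0.0315 by edgeR). Gla was not called when Stag2KO replicate 1 (adjusted p = 0.0923) or 3 (0.105) or Stag2WT replicate 1 (0.0894) or 2 (0.0724) was left out. The acid maltase gene Gaa stood at 90.3 to 95.5 CPM in Stag2KO and 73.2 to 88.8 CPM in Stag2WT, groups that did not overlap, with a fold change of 0.20 in log2 (adjusted p = 0.0965). It was called higher without Stag2WT replicate 3 (0.28, adjusted p = 0.0402). Neu1, a sialidase, had a fold change of 0.20 in log2 (adjusted p = 0.159), and was called higher without Stag2KO replicate 2 (0.30, adjusted p = 0.0392). Log2 fold changes were 0.16 for Naglu, which acts on heparan sulfate, 0.06 for the beta-galactosidase gene Glb1, 0.03 for the beta-glucuronidase gene Gusb and -0.01 for Hexa, the alpha subunit of beta-hexosaminidase. Summed over the 7 genes, the level was 638 to 751 CPM in Stag2KO and 618 to 702 CPM in Stag2WT.

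Among lipid hydrolases and soluble cofactors, 2 of 7 fell by edgeR (28.6%, against 10.5% of all tested genes called lower), 0 rose and 5 were not called. Gm2a encodes the GM2 activator, which lifts the ganglioside GM2 out of the membrane so that beta-hexosaminidase can cut it. It was at 76.6, 82.8 and 108 CPM in Stag2KO libraries, against 238, 194 and 214 CPM in Stag2WT libraries. The groups were wide apart, with a log2 fold change of -1.27 (SE 0.14, adjusted p = 0.00187 by edgeR) that was called whichever library was left out. Hexa, the enzyme subunit that works with this activator, averaged 200.1 ± 22.2 CPM in Stag2KO libraries and 202 ± 11.3 CPM in Stag2WT libraries (SD, n = 3 each).

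Asah1, the acid ceramidase gene, was at 91.7, 81.3 and 104 CPM in Stag2KO libraries, against 122, 105 and 124 CPM in Stag2WT libraries. Its groups nearly touched, and the fall of 0.34 log2 units lay at the threshold (SE 0.10, adjusted p = 0.0482 by edgeR). With Stag2KO replicate 1 or 2 or Stag2WT replicate 1 or 3 left out it was not called (adjusted p 0.116, 0.131, 0.12 and 0.125), nor was it by limma-voom (0.0575), without robust dispersion (0.0545) or with the stricter filter on low counts (0.0557).

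Psap, the precursor of the saposins that present lipids to lysosomal enzymes, was at 1049, 919 and 1371 CPM in Stag2KO libraries, against 1697, 1227 and 1512 CPM in Stag2WT libraries. Stag2KO replicate 3 lay inside the Stag2WT range, and the log2 fold change of -0.41 was not called (adjusted p = 0.127 by edgeR), except without Stag2KO replicate 3 (-0.59, adjusted p = 0.0401) and by DESeq2 (adjusted p = 0.036). The acid lipase gene Lipa (-0.20), the cholesterol carrier gene Npc2 (-0.15) and the progranulin gene Grn (-0.01) were not called. Ppt1, a thioesterase that strips palmitate from proteins, was at 110.0 to 125 CPM in Stag2KO and 93.5 to 103 CPM in Stag2WT, with a fold change of 0.23 in log2 (adjusted p = 0.054 by edgeR and 0.049 by DESeq2).

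Of the 7 membrane protein genes, 1 rose by edgeR (14.3%, against 10.7% of all tested genes called higher), 0 fell and 6 were not called. Cd63, a tetraspanin of late endosomes, lysosomes and granule membranes, was at 280.5, 217 and 244 CPM in Stag2KO libraries, against 184, 177 and 169 CPM in Stag2WT libraries. No Stag2KO library came down to the Stag2WT range, and Cd63 rose by 0.48 log2 units (SE 0.09, adjusted p = 0.011 by edgeR), whichever library was left out. Stag2KO replicate 1, with the highest Cd63, also had the highest summed levels of neutrophil genes, given above, and of eosinophil genes. Among the Stag2KO libraries it was also the highest in summed resident macrophage, erythroid and B cell genes, lists whose calls were all lower in Stag2KO. Of 9 eosinophil genes 7 were higher in Stag2KO, with sums of 3834 to 5910 CPM in Stag2KO and 1160 to 1742 CPM in Stag2WT, and none was at 0 reads. The part of these cells in the Cd63 result was not tested.

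Cd68, a sialomucin of macrophage endosomes and lysosomes, was at 54.0, 44.6 and 69.9 CPM in Stag2KO libraries, against 108, 80.3 and 81.2 CPM in Stag2WT libraries. The groups did not overlap, but the log2 fold change of -0.68 narrowly missed the threshold (SE 0.19, adjusted p = 0.0518 by edgeR). It passed without Stag2KO replicate 3 (-0.86, adjusted p = 0.0142), and with median-ratio size factors (0.0476), the stricter filter (0.0479), limma-voom (0.0335), no robust dispersion (0.0349) and DESeq2 (0.000762). The abundant coat proteins of the lysosomal membrane had small fold changes of opposite sign. Lamp1 was at 309 to 359 CPM in Stag2KO and 376 to 403 CPM in Stag2WT, with a fold change of -0.21 (log2; adjusted p = 0.08 by edgeR, 0.0431 by DESeq2). Lamp2 was at 231 to 272 CPM in Stag2KO and 220.5 to 224 CPM in Stag2WT (0.20, adjusted p = 0.0789), and was called higher without Stag2KO replicate 2 (0.27, adjusted p = 0.0357). Scarb2, the receptor that carries glucocerebrosidase to lysosomes (-0.19), the cholesterol exporter gene Npc1 (-0.01) and the calcium channel gene Mcoln1 (-0.04) were not called.

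Counted by overlap alone, the Stag2KO values of 10 genes lay wholly below the Stag2WT values (27.0%, against 21.2% of all tested genes), and those of 6 lay wholly above (16.2%, against 22.2%). Among all tested genes 43.5% did not overlap in one direction or the other. Besides the 6 called falls, the 10 were Ctse, Tpp1, Lamp1 and Cd68, and besides the 2 called rises, the 6 were Gaa, Naglu, Ppt1 and Lamp2.

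**Figure D3:**
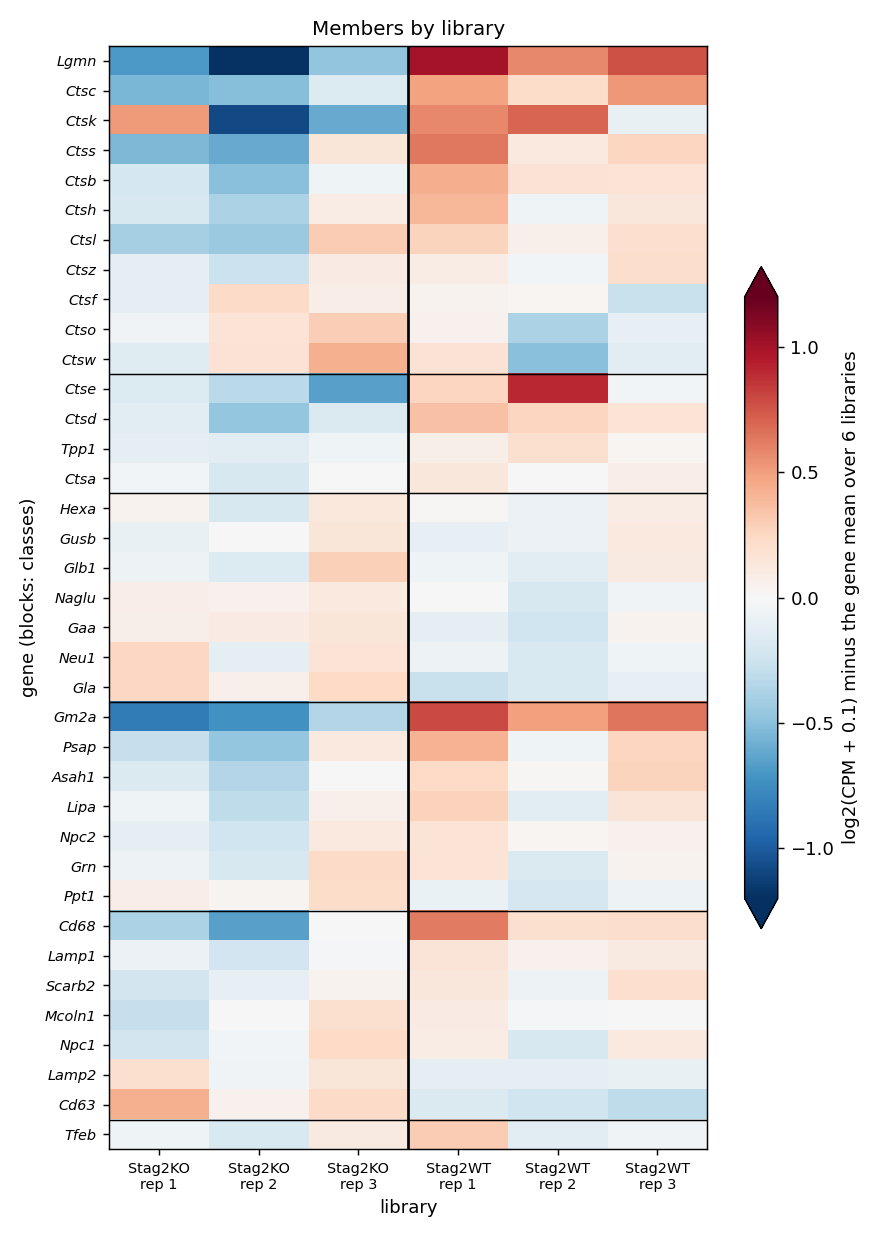
Level of each of the 37 genes in each library, as log2(CPM + 0.1) minus the gene's mean over the 6 libraries (red, above the mean; blue, below; colours saturate at 1.2 either way; blocks are classes, Stag2KO libraries on the left). Among the Stag2KO libraries, replicate 3 is the highest for 29 of the 37 genes and replicate 2 the lowest for 26.

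Libraries of a group differed from each other in the same direction for most of the 37 genes. Among the Stag2KO libraries, replicate 3 was the highest for 29 genes and replicate 2 the lowest for 26. Among the Stag2WT libraries, replicate 1 was the highest for 21 genes and replicate 2 the lowest for 27. The summed level of the 37 genes was 5904, 5242 and 6668 CPM in Stag2KO replicates 1, 2 and 3, and 7821, 6813 and 7165 CPM in Stag2WT replicates 1, 2 and 3. Resident macrophage genes summed to 602, 394 and 540 CPM in the same Stag2KO libraries and to 1656, 1637 and 1604 CPM in the same Stag2WT libraries. For 10 monocyte genes, of which 6 were lower in Stag2KO, 4 were not called and none was at 0 reads, the sums were 1703, 1761 and 1838 CPM in Stag2KO and 2271, 1868 and 2139 CPM in Stag2WT. Their part in the falls of lysosomal genes was not tested. The spread within a group, as SD over mean, had a median over the 37 genes of 12.7% in Stag2KO and 9.32% in Stag2WT, with Ctsk at 64.0% in Stag2KO and Ctse at 34.7% in Stag2WT as the widest.

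Tfeb encodes a transcription factor that moves to the nucleus when nutrients run short and switches on lysosomal genes. It was at 21.7, 19.8 and 24.2 CPM in Stag2KO libraries and 27.7, 20.4 and 21.8 CPM in Stag2WT libraries. The groups overlapped, with a log2 fold change of -0.09 and SE of 0.13 (adjusted p = 0.665 by edgeR). The related factor genes Tfe3 (-0.19, adjusted p = 0.0816) and Mitf (-0.27, adjusted p = 0.234) were not called, while Tfec rose (0.30, adjusted p = 0.021). Tfec was not called when Stag2KO replicate 1 (adjusted p = 0.0722) or 3 (0.0719) or Stag2WT replicate 1 (0.0574) or 3 (0.0557) was left out.

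Factors of the Tfeb family bind a CLEAR element, a palindrome around the letters CACGTG that lies near the start of many lysosomal genes. Promoter sequences from RefSeq on build GRCm38.p6, running from 250 bases before to 50 bases after each start, were held for 31 of the 37 genes. Tested genes were matched to promoters by identical symbol, which leaves out those under older symbols, although Tfeb is among the 31. The letters CACGTG, which read the same on both strands, were present for 11 of the 31 (35.5%). The share was 11.5% of the 9995 tested genes matched to a promoter sequence and 8.09% of all 27025 genes with one. The longer GTCACGTG, or CACGTGAC on the other strand, was present for 8 of the 31 (25.8%), against 4.62% of those tested genes and 2.55% of all genes. The palindrome in which both of these longer forms overlap on CACGTG was in 0 of the 31, against 0.77% of those tested genes and 0.37% of all genes. Each longer form contains the shorter ones, so the counts overlap. A match describes letters in the window and does not show binding. The match nearest to the start and wholly before it is shown for these 8 genes, because they include genes that fell, rose and were not called. Capitals mark the 8 matching bases, and sequences run 5′ to 3′ along the gene's strand.
Lgmn: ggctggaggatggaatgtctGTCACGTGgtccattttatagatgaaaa
Ctsd: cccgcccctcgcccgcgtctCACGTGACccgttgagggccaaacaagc
Gla: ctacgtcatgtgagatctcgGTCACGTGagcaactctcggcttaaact
Ctsa: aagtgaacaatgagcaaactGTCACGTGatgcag
Glb1: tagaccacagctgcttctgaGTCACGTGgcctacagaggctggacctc
Naglu: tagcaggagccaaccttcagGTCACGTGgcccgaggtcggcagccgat
Lamp1: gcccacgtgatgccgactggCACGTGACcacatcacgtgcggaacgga
Mcoln1: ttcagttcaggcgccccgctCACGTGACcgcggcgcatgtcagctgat

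On GRCm38.p6 these stretches lie at chr12:102439116-102439163 (minus strand) for Lgmn, chr7:142387898-142387945 (minus) for Ctsd, chrX:134601174-134601221 (minus) for Gla and chr2:164833739-164833772 (plus) for Ctsa. Those of Glb1, Naglu, Lamp1 and Mcoln1 lie on the plus strand at chr9:114401008-114401055, chr11:101069999-101070046, chr8:13159113-13159160 and chr8:3500454-3500501. The first base of the match lay 51 bases before the start in Lgmn, 98 in Ctsd and 196 in Gla. Of the 8 genes with the longer form, Lgmn and Ctsd fell, Gla rose and 5 were not called, with a median log2 fold change of -0.10 and a range of -1.54 to 0.37. Of the 23 genes with a promoter sequence but without it, 2 fell, 1 rose and 20 were not called, with a median of -0.15 and a range of -1.27 to 0.48. Over all tested genes 10.5% were called lower and 10.7% higher. Ctsb and Asah1, both called lower, had no promoter sequence and are in neither group.

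Lysosomal genes outside the 37 were called lower and higher in nearly equal numbers. Of 117 listed, 115 were tested, 12 fell (10.4%, against 10.5% of all tested genes) and 13 rose (11.3%, against 10.7%), with a median log2 fold change of 0.06. Without Stag2KO replicate 2 or Stag2WT replicate 1 the falls numbered 7, and without Stag2KO replicate 1 or 3 the rises numbered 7. Among other hydrolases and enzymes linked to them 4 of 28 fell and 1 rose. Arsb, a sulfatase that acts on dermatan sulfate, averaged 162 ± 14.7 CPM in Stag2KO libraries and 85.8 ± 6.07 CPM in Stag2WT libraries (SD, n = 3 each) and rose by 0.91 in log2 (adjusted p = 0.000693 by edgeR). Acp5, the tartrate-resistant acid phosphatase of osteoclasts and macrophages, fell (-1.30, adjusted p = 0.00807), as did the hyaluronidase gene Hyal2 (-0.68, adjusted p = 0.0121), Hgsnat, which acetylates heparan sulfate (-0.44, adjusted p = 0.0136) and Sumf1, the activator of sulfatases (-0.31, adjusted p = 0.0298).

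Among further membrane and lumenal proteins 4 of 26 fell and 3 rose. Cln3 (0.57, adjusted p = 0.00326 by edgeR), the sialic acid exporter gene Slc17a5 (0.69, adjusted p = 0.01) and the channel gene Tpcn2 (0.42, adjusted p = 0.0278) were higher in Stag2KO. Slc11a1, a metal pump of macrophage phagosomes (-1.32, adjusted p = 0.0169), the amino acid sensor gene Slc38a9 (-0.39, adjusted p = 0.0162), the chloride transporter gene Clcn7 (-0.24, adjusted p = 0.0327) and Ifi30, a thiol reductase of antigen processing (-0.54, adjusted p = 0.0351), were lower. Of the 18 vacuolar proton pump genes, which acidify the lysosome, Atp6ap2 rose (0.31, adjusted p = 0.0188), Atp6v0c fell (-0.35, adjusted p = 0.01) and 16 were not called. In the machinery that delivers enzymes to lysosomes, 3 of 24 genes rose (Ap3s1, Vps39 and Hps1, at 0.32, 0.28 and 0.26) and 2 fell (Gnptg, -0.40, and Ap1b1, -0.38). Of 16 regulators, Tfec and the nutrient-sensing genes Lamtor4 (0.40), Fnip1 (0.29) and Rptor (0.26) rose and 12 were not called.

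Of these 25 calls 12 held whichever library was left out. Those of Clcn7 and Rptor were lost in all 6 fits that left out a library (adjusted p 0.0511 to 0.109). Tpcn2 and Ifi30 lost theirs when any single library was left out, except Stag2WT replicate 1 for Tpcn2 and Stag2KO replicate 3 for Ifi30, and Gnptg and Hps1 for any single library except Stag2WT replicate 3. Sumf1 was not called without Stag2KO replicate 1 or 2 or Stag2WT replicate 1 or 3, Ap1b1 without Stag2KO replicate 2 or 3 or Stag2WT replicate 1 or 2, and Fnip1 without any single Stag2KO replicate or Stag2WT replicate 3. Atp6ap2 lost its call without Stag2KO replicate 1 or 3 or Stag2WT replicate 1, Slc38a9 without Stag2KO replicate 3 or Stag2WT replicate 2, and Slc11a1 without Stag2KO replicate 1. The highest adjusted p among these fits was 0.116, for Hps1.

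Of 3 tested cathepsin inhibitor genes, all cystatins, 1 fell and 1 rose. Cst3, the secreted cystatin C, averaged 240 ± 26.1 CPM in Stag2KO libraries and 319 ± 13.8 CPM in Stag2WT libraries and fell by 0.41 log2 units (adjusted p = 0.0147 by edgeR). Cst7, cystatin F, which enters lysosomes of immune cells and restrains Ctsc among others, averaged 164 ± 16.4 CPM in Stag2KO libraries and 115 ± 8.92 CPM in Stag2WT libraries (SD, n = 3 each) and rose by 0.51 (adjusted p = 0.0071). Both calls held whichever library was left out.

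**Figure D4:**
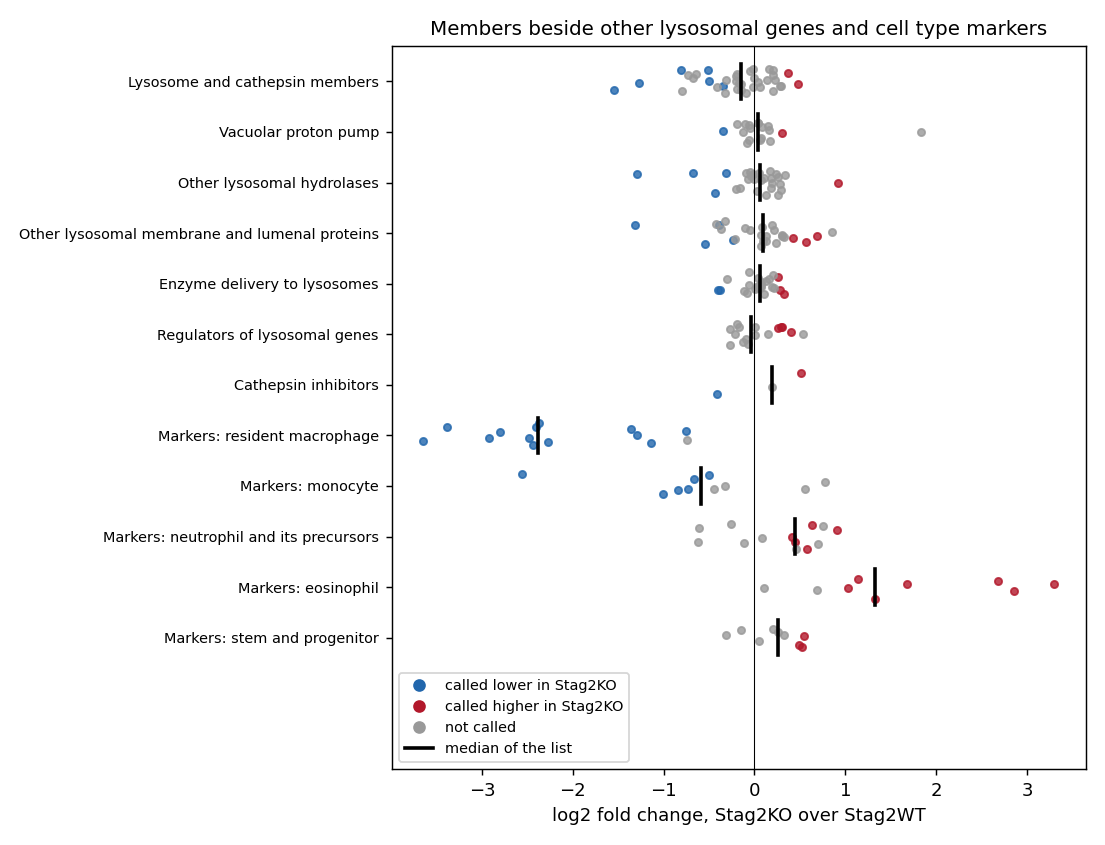
Log2 fold change of Stag2KO over Stag2WT (horizontal axis) for the 37 genes, the 6 further lysosomal lists and 5 lists of cell type markers, with 1 point per tested gene (blue, called lower in Stag2KO; red, called higher; grey, not called; black bar, median of the list; vertical scatter is arbitrary). The median is -0.15 for the 37 genes, -2.39 for resident macrophage markers and 0.45 for markers of neutrophils and their precursors.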

How the data were processed

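Reads per gene symbol were deposited by the authors as raw counts, 1 column per library. STAR 2.4, HTSeq 0.6.1 and DESeq2 with build mm9 are named, per the submitters' processing notes. Annotation, kit and strand setting of these libraries were not stated there. RNA was extracted with TRIzol, per the labels' protocols. Rows that name no gene were left out: 8.81% to 12.8% of a library's total lay in no gene, 2.02% to 2.2% was ambiguous and 23.4% to 28.6% aligned to several places. A check for libraries deposited more than once found none: chi-square per degree of freedom was 22.6 to 47.1 between libraries of a group. Replicates were numbered in accession order and carry no pairing.

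Counts were fitted in R 4.3.3 with edgeR 4.0.16 (TMM, filterByExpr defaults, robust quasi-likelihood, genotype only) and Benjamini-Hochberg adjustment over 15708 genes. Standard errors were taken as the fold change over the square root of the F statistic. At 5 CPM the shallowest library held 147 reads, a counting error of 8.24%, which covers counting only. The fits were also run on simulated counts with the same dispersion for every gene, and no error rate for these data was drawn from them. Other settings tried were DESeq2's median-ratio size factors, no low-count filter beyond 1 read, at least 5 CPM in 3 libraries (the stricter filter), DESeq2 1.42.0, limma-voom (limma 3.58.1), no robust dispersion and each library left out. All 37 genes are named. Library values are given for Tfeb and for those called without overlap at a mean of 5 CPM or more. Of each further lysosomal list, up to 4 called genes with the smallest p in each direction are named. Other genes with such values were picked after their values were seen. Older symbols were matched through RefSeq synonyms. The members and lists were chosen with earlier results of these data known.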

Additional observations from a re-analysis of the deposited data

How the results depend on the processing

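Every count gave the same verdict, within 1.5 times, with DESeq2's size factors in edgeR, no low-count filter, the stricter filter, limma-voom and no robust dispersion. By DESeq2, 10 of the 37 genes were called lower, against 6 by edgeR. With reads outside annotated genes (as a share) entered as covariate, an alternative chosen after the data were seen, 23 of all tested genes were called lower and 44 higher, and edgeR called 0 of the 37 and 0 of the 115 further lysosomal genes in either direction (at an unadjusted p under 0.05, 3 of the 37 and 2 of the 115 were lower, and 3 and 17 higher). In that fit 10 uncalled genes changed sign: Ctsh (0.00572), Ctsk (0.93), Ctsl (0.0283), Ctsa (0.00975), Hexa (0.15), Gusb (-0.0719), Lipa (0.0283), Npc2 (0.10), Grn (0.21) and Tfeb (0.20). The share did not overlap between the groups, so that fit could not separate it well from genotype. The cause of these changes was not tested. Leaving out each library gave 902 to 1311 genes called lower and 962 to 1256 called higher (moved by over 1.5 times when any single Stag2KO replicate or Stag2WT replicate 2 was left out), 4 to 10 of the 37 lower and 1 to 4 higher, and 7 to 9 of the further lysosomal genes lower and 7 to 12 higher. Fold changes near 0 took both signs over those fits in Hexa (-0.0805 to 0.0744), Glb1 (-0.0883 to 0.15), Gusb (-0.0318 to 0.10), Grn (-0.14 to 0.0778), Npc1 (-0.14 to 0.10), Mcoln1 (-0.16 to 0.0731) and Tfeb (-0.18 to 0.0521). Stag2 was lower in every fit (-0.84 to -0.91 over those that left out a library). Ctsk, with as few as 23 reads in a library, is the gene where depth limits most, and it has no value under the stricter filter. No paired analysis was possible because the labels give no replicate numbers shared between groups.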

Other observations

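Atp6v0d2, a subunit of the vacuolar proton pump typical of macrophages and osteoclasts, was at 54.2, 36.8 and 54.7 CPM in Stag2KO libraries, against 34.8, 4.03 and 2.02 CPM in Stag2WT libraries. Stag2WT replicate 1 stood far above the other Stag2WT libraries, and the log2 fold change of 1.83 was not called (SE 1.13, adjusted p = 0.306 by edgeR). The gene belongs to both the proton pump list and the osteoclast markers, and of the 5 tested osteoclast markers Itgb3, an integrin subunit also found on platelets, rose (0.66, adjusted p = 0.007) and Tnfrsf11a, the receptor that drives osteoclast formation, fell (-1.16, adjusted p = 0.022). The Tnfrsf11a call was lost without Stag2KO replicate 1 (0.0577) or 2 (0.0516) or Stag2WT replicate 1 (0.0589) or 3 (0.0502).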
